A study of Mus musculus with 49 samples.

Results

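The 10 heat shock genes Hspa1a, Hspa1b, Hspa8, Hspa5, Hsp90aa1, Hsp90ab1, Hsph1, Dnajb1, Hsf1 and Hsf2 were followed in single mouse embryos at the late 2-cell stage, the stage of major zygotic genome activation. They were found by their symbols in the GENCODE annotation of GRCm38, each at 1 Ensembl identifier, and make up 10 of the 54838 genes in the count tables. The embryos came from F1(C57BL/6J×CBA/H) females mated with F1 males. Each embryo was 1 library of Smart-seq+5', a single-cell protocol that marks the reads starting at transcript 5' ends, and the counts hold those reads alone. The labels give 9 embryos injected as zygotes with an antibody against TBP (TBP LOF, for loss of function), 10 with mouse IgG (TBP CONTROL), 17 with an antibody against FOXJ3 (FOXJ3 LOF) and 13 with rabbit IgG (FOXJ3 CONTROL). All of them received mRNA for mCherry-Trim21 4 h after the antibody and were collected 48 h after hCG. TBP binds TATA boxes and takes part in the assembly of RNA polymerase II at promoters, and FOXJ3 is a forkhead transcription factor.

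In this method, called Trim-Away, the ubiquitin ligase Trim21 sends the protein that the antibody has bound to degradation, so the mRNA of the target does not check the depletion. Controls carried the Trim21 mRNA as well. FOXJ3 embryos came from 2 library batches. The TBP embryos shared 1 lysis buffer, and the sources used here do not give which of them were collected together. In total 47 embryos passed the filters on library quality, namely 9 LOF and 9 CONTROL embryos for TBP and 16 LOF and 13 CONTROL embryos for FOXJ3, with 1103569 to 5434808 counted reads each. The labels give the stage and no cell count for each embryo, so that in these whole-embryo libraries fewer cells and less RNA per cell cannot be told apart.

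Heat shock proteins are chaperones, which hold other proteins in a foldable state. HSP70 and HSP90 proteins bind and release their clients in cycles of ATP hydrolysis that co-chaperones set in motion and end, and heat shock factors switch on many of their genes by binding heat shock elements upstream of the start site. In the mouse embryo the inducible HSP70 genes are known to be among the earliest to be transcribed after fertilisation, without any heat shock.

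Upstream sequence is shown first for 4 genes. These are Hspa1a and Hspa1b, whose fold change after TBP depletion did not pass the test, Hsph1, with the lowest fold change of the 10 genes after TBP depletion, and Hspa5, the chaperone of the endoplasmic reticulum. The sequences, of 120 bases each and ending at the base before the RefSeq start site (GRCm38.p6), come from RefSeq and run 5' to 3' in the direction of the gene. Capitals mark matches to a motif, each searched on both strands. The motifs were the heat shock element of 2 units (GAANNTTC or TTCNNGAA), the GC box (GGGCGG), the TATA box spelled TATAAA or, in a second spelling, TATATA, the CCAAT box, and the endoplasmic reticulum stress element (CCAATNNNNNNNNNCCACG).
Hspa1a, chr17:34972157-34972276, minus strand: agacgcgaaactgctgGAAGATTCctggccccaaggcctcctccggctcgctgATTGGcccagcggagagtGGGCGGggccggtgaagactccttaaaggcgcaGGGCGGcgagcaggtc
Hspa1b, chr17:34959239-34959358, minus strand: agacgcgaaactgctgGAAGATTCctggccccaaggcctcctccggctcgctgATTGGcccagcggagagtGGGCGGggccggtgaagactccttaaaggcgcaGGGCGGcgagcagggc
Hsph1, chr5:149636337-149636456, minus strand: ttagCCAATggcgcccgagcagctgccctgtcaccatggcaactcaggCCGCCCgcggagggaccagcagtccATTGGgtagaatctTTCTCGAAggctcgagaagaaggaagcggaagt
Hspa5, chr2:34771970-34772089, plus strand: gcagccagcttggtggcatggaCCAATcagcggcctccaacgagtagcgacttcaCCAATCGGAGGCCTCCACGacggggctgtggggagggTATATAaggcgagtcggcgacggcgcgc

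Promoter sequence was held for 6 of the genes, Hspa1a, Hspa1b, Hspa5, Hsph1, Dnajb1 and Hsf2. Within the 250 bases upstream of the start, Hspa1a and Hspa1b were identical at 247 bases and each held a heat shock element of 2 units from base 104 to base 97 upstream, a CCAAT box from base 67 to base 63 and 3 GC boxes. RefSeq gives 2 start sites for Hsph1 and 2 for Dnajb1, of which the first listed is used for the sequence shown. Hsph1 held its heat shock element closer to the start, from base 33 to base 26 upstream of the first start site and from base 54 to base 47 upstream of the other. No match to a heat shock element was present in the windows of Hspa5, Dnajb1 or Hsf2. Of the 32817 mouse promoters of the same length, 12.8% held such an element. An element of 3 units (GAANNTTCNNGAA or TTCNNGAANNTTC) was present in 0.466% of promoters and in 0 of these 6 genes.

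Hspa5 was the only one of the 6 genes with a match to a TATA box, from base 28 to base 23 upstream, and to the endoplasmic reticulum stress element, from base 65 to base 47, whose first letters are also counted as a CCAAT box. The share of all promoters with these motifs was 15.6% for the TATA box and 0.113% for the stress element. CCAAT boxes were found upstream of all 6 genes (of Dnajb1 at the first start site but not at the other), against 33.8% of promoters, and GC boxes upstream of all 6 as well, against 32.7%. A match describes letters and does not show binding, and its absence says only that these letters are not in the window. The annotation used for the counts places some starts elsewhere. The outermost GENCODE start lay 120 bases upstream of the RefSeq start for Hspa5, so that all of its printed sequence, with the TATA box and the stress element, falls inside the GENCODE gene. For Hsph1 it lay 40 bases upstream of the first RefSeq start and 61 bases upstream of the other, and its heat shock element therefore also falls inside the GENCODE gene. For Dnajb1 it lay 18 bases downstream of the first RefSeq start and 355 bases upstream of the other, and for Hspa1a, Hspa1b and Hsf2 both annotations gave the same start.

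**Figure D1:**
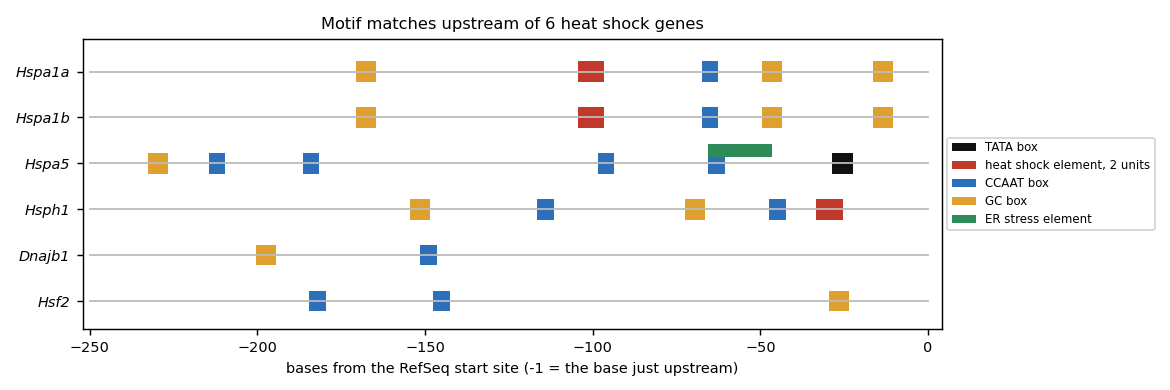
Motif matches in the 250 bases upstream of the RefSeq start of 6 heat shock genes (the first listed where there are 2), with the distance from the start in bases on the horizontal axis and 1 gene per line. Hspa1a and Hspa1b show the same matches at the same distances, and only Hspa5 shows a TATA box and an endoplasmic reticulum stress element.

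In CONTROL embryos the genes fell into a broad range of levels. Levels between genes are given as CPM per kilobase of exon, where CPM is the count scaled to a library of 1000000 reads. As only 5' ends were counted, this divides by length a count that need not grow with length. In TBP CONTROL embryos the median CPM per kilobase ran from 236.0 for Hsp90ab1 and 123 for Hsp90aa1 through 64.4 for Hspa8, 40.5 for Hspa5, 22.6 for Dnajb1, 8.92 for Hsph1 and 7.60 for Hsf1 to 2.25 for Hspa1a, 0.336 for Hsf2 and 0.103 for Hspa1b. Hsp90ab1, the constitutive cytosolic HSP90, did not overlap its neighbour Hsp90aa1, the inducible form, over the 9 embryos (155 to 278 against 74.1 to 137). Hsf1 and Hspa1a did not overlap either (6.23 to 9.81 against 0.473 to 4.29), and neither did Hspa1a and Hsf2 (0 to 0.456), which lay close together. The ranges of Hsp90aa1 and Hspa8 met at their edges (Hspa8 48.6 to 74.5), and those of all other neighbours in the order overlapped. In CPM, without division by length, Hsp90ab1 (465 to 833) and Hsp90aa1 (291 to 540) did overlap. So did Hspa1a (1.40 to 12.7) and Hsf2 (0 to 4.38), while Hsf1 (44.2 to 69.6) still lay above Hspa1a.

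FOXJ3 CONTROL embryos showed the same order but for 2 pairs of neighbours, which changed places and overlapped widely. These were Hspa5 (median 69.7 CPM per kilobase) with Hspa8 (66.9), and Hspa1b (0.113) with Hsf2 (0.0632). Hsp90ab1 (median 235.7) ranged from 90.6 to 499 in these 13 embryos, and Hspa1a from 1.02 to 5.12. Hspa1b was listed at 0 reads in 22 of the 47 embryos of the 4 groups, and Hsf2 in 10. With 52 and 175 reads in all, both lay at the floor of what these libraries measured, while Hspa1a was read in each of the 47 embryos with 831 reads in all.

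Reads of some of these genes cannot be assigned with certainty. Hspa1a and Hspa1b encode almost the same inducible HSP70, their transcripts agreed at 147 of the first 150 bases, and 58.8% of the words of 50 bases in Hspa1a exons recurred in Hspa1b. Hspa1a also shared 564 exonic bases with Gm20481 on the opposite strand, to which 591 reads were assigned. For Hspa8, 39.4% of words recurred in other genes, mostly in Gm15459, and for Hsp90aa1 47.5%, mostly in Gm12346. These 2 genes held 499 and 274 reads against 26826 for Hspa8 and 47736 for Hsp90aa1. No word of Hspa5, Hsph1 or Hsf1 recurred elsewhere.

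The comparison of TBP LOF with CONTROL embryos asked how the genes respond to a depletion of TBP that was started in the zygote. Whether TBP was gone before genome activation began was not tested. The authors do not exclude that some TBP remained or that its loss was transient. With libraries scaled to the ERCC spike-in RNA, 7 of the 10 heat shock genes were lower in TBP LOF embryos and 0 were higher. Of the 19356 genes and transposable element families tested, 29.7% were lower and 1.34% were higher, and the median log2 fold change was -0.72. Under a stricter filter on low counts, 4269 of 8124 features were lower and 123 higher, with a median of -0.90. The 10 genes had a median of -1.17. Hsph1 fell to a 5.00-fold lower level, and Dnajb1, Hsp90aa1, Hsp90ab1, Hspa8 and Hspa5 fell to levels 2.09 to 2.78 times lower. Fold changes were tested with the quasi-likelihood test of edgeR on counts, adjusted over all features with a threshold of 0.05.

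The choice of scaling decided most of these calls. With TMM scaling, which assumes that most features do not change, the median over all features moved from -0.72 to 0.11, and 12.7% of features were lower and 12.8% higher. Of the heat shock genes, 1 was then lower (Hsph1) and 1 higher (Hsf1). ERCC RNA took 2.67% to 6.12% of reads in TBP LOF and 2.22% to 3.25% in CONTROL embryos. Relative to the median of all features, the genes kept their places under both scalings, from Hsph1 (-1.60 with ERCC and -1.59 with TMM scaling) to Hsf1 (0.91 and 0.97).

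**Figure D2:**
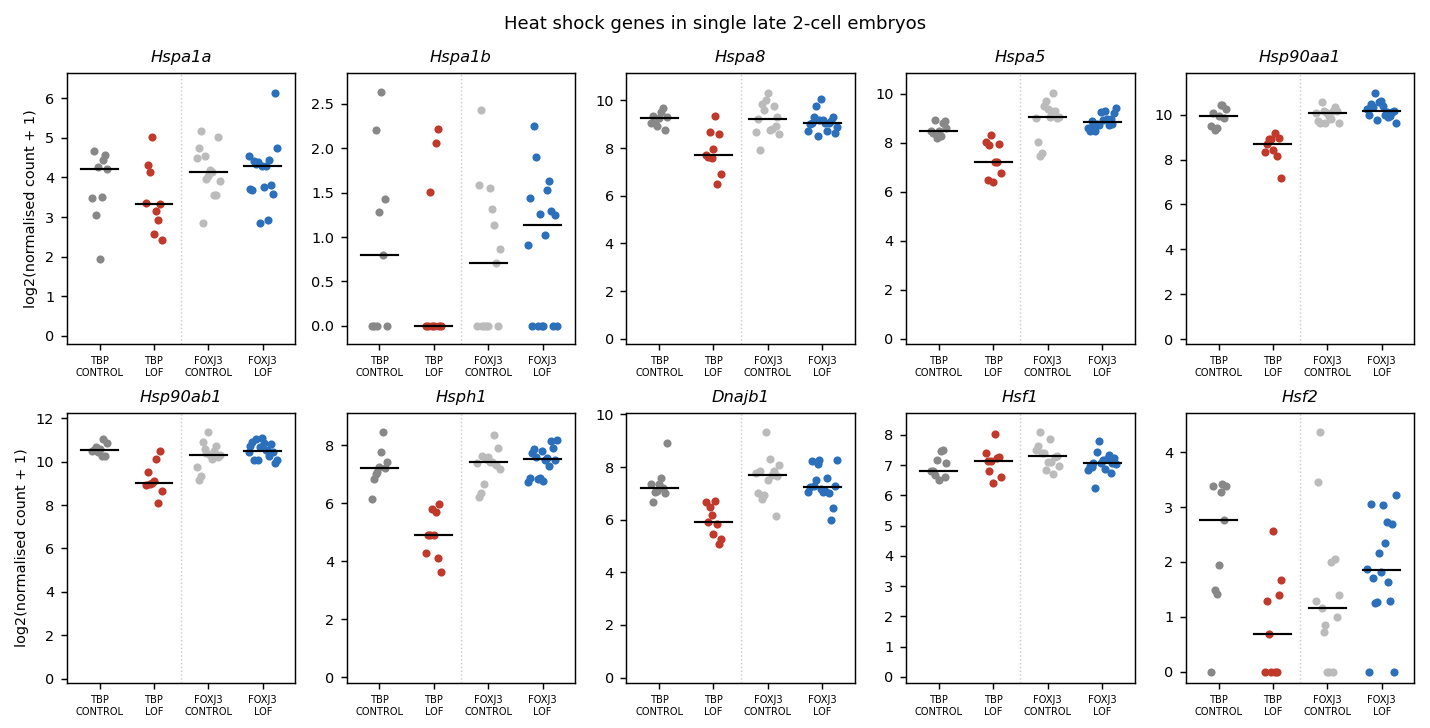
Each point is 1 embryo and the vertical axis gives log2(normalised count + 1), scaled by ERCC spike-ins in the TBP experiment and by TMM in the FOXJ3 experiment, with a black bar at the group median. All TBP LOF embryos lie below all TBP CONTROL embryos for Hsph1 and Hsp90aa1, and the FOXJ3 groups overlap for all 10 genes. The share of all features whose groups lie apart was not computed.

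Hspa1a belongs to the inducible HSP70 genes, a group transcribed early after fertilisation. In TBP LOF embryos its ERCC-normalised count was 4.35 at the lowest, 9.02 at the median and 31.4 at the highest embryo. In CONTROL embryos these values were 2.85, 17.5 and 24.4. The groups overlapped over almost their whole range, and 7 of 9 LOF embryos were under the median of the CONTROL group while the single highest value was in a LOF embryo. The log2 fold change of -0.36 (SE 0.47, 95% interval -1.29 to 0.58) did not pass the test (edgeR, adjusted p = 0.622), and it turned to 0.41 with TMM scaling (adjusted p = 0.488). It lay between -0.67 and -0.24 when each embryo was left out in turn.

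Hspa1b, its near-identical neighbour, had reads in 3 of 9 TBP LOF and 5 of 9 CONTROL embryos, with normalised counts of 0 to 3.66 and 0 to 5.21. Its log2 fold change was -0.50 (SE 1.02, edgeR adjusted p = 0.767), and it turned to 0.30 with TMM scaling, so that no difference was detectable at this depth. Without LOF embryo 9 it was -1.16 and without CONTROL embryo 6 it was -0.026, the 2 ends of the range when each embryo was left out. Because reads can pass between the genes, their sum was tested as well. The sum was 4.35, 10.3 and 31.4 at the lowest, median and highest TBP LOF embryo and 4.28, 17.5 and 24.4 in CONTROL embryos. The mean of log2(sum + 1) differed by -0.38 (two-sided exact permutation test over 9 and 9 embryos, p = 0.310), and on CPM by 0.19 (p = 0.555).

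Hspa8 encodes the constitutive cytosolic HSP70. Its normalised count was 90.1, 209 and 653 at the lowest, median and highest TBP LOF embryo and 428, 616 and 823 in CONTROL embryos. In 8 of 9 LOF embryos the count lay below all CONTROL embryos, and 1 LOF embryo lay above the CONTROL median. The log2 fold change was -1.13 (SE 0.31, edgeR adjusted p = 0.00307), and -0.34 with TMM scaling (adjusted p = 0.279).

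Hspa5 encodes BiP, the HSP70 of the endoplasmic reticulum and a sensor of unfolded proteins there. TBP LOF embryos had 82.9, 149 and 316 normalised counts at the lowest, median and highest embryo, and CONTROL embryos 289, 357 and 489. Of the 9 LOF embryos, 8 lay below all CONTROL embryos. Hspa5 fell by 1.06 on the log2 scale (SE 0.29, edgeR adjusted p = 0.00337), and its log2 fold change was -0.24 with TMM scaling (adjusted p = 0.484).

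Hsp90aa1 was lower in every TBP LOF embryo than in any CONTROL embryo. How often the groups of other features lay apart in this way was not computed. Its normalised count was 144, 418 and 575 at the lowest, median and highest LOF embryo and 630.1, 986 and 1387 in CONTROL embryos. The log2 fold change was -1.34 (SE 0.29, edgeR adjusted p = 2.26e-04), and -0.50 with TMM scaling, where it did not pass the test (adjusted p = 0.0557). Hsp90ab1, the more abundant HSP90 gene, had 275, 519 and 1431 normalised counts in LOF and 1214, 1479 and 2141 in CONTROL embryos, with 8 of 9 LOF embryos below all CONTROL embryos. It fell by 1.22 on the log2 scale (SE 0.30, edgeR adjusted p = 0.00109), and its log2 fold change was -0.40 with TMM scaling (adjusted p = 0.187).

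Hsph1 encodes HSP110, which exchanges the nucleotide of HSP70 and so lets it release its client. The normalised count was 11.3, 28.9 and 61.5 at the lowest, median and highest TBP LOF embryo and 69.1, 149 and 350.2 in CONTROL embryos, so that the groups did not overlap. How often this held for other features was not computed. Hsph1 fell by 2.32 on the log2 scale (SE 0.34, edgeR adjusted p = 3.54e-07), and 8.62% of all features tested had a lower value. The gene was also lower with TMM scaling (log2 fold change -1.48, adjusted p = 7.09e-05).

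Dnajb1 encodes an HSP40 protein, which brings clients to HSP70 and stimulates its ATPase. TBP LOF embryos had 32.8, 59.5 and 105 normalised counts at the lowest, median and highest embryo, and CONTROL embryos 100.2, 148 and 479.6. All 9 LOF embryos were under the median of the CONTROL group, 7 of them under its lowest embryo. Dnajb1 fell by 1.48 on the log2 scale (SE 0.32, edgeR adjusted p = 2.07e-04), and its log2 fold change was -0.56 with TMM scaling (adjusted p = 0.0859). CONTROL embryo 10 held the highest value, far above the next of 193, and with it left out the log2 fold change was -1.15 and still passed the test.

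Of the 2 heat shock factors, which regulate many chaperone genes, Hsf2 passed the test and Hsf1 did not, and the difference between the 2 was not tested. Hsf1, the factor that answers to heat and other stress, had 83.5, 139 and 259 ERCC-normalised counts at the lowest, median and highest TBP LOF embryo and 89.9, 110 and 179 in CONTROL embryos. The groups overlapped and the log2 fold change of 0.19 (SE 0.29, 95% interval -0.38 to 0.77) did not pass the test (edgeR adjusted p = 0.675). As a share of the library, however, Hsf1 rose. It took 76.6, 99.5 and 119.9 CPM in LOF embryos and 44.2, 53.9 and 69.6 in CONTROL embryos, with no overlap, and the log2 fold change with TMM scaling was 1.07 (adjusted p = 1.57e-04). With that scaling 12.8% of all features were higher, and 81.2% of all features had a lower value than Hsf1. The share of all features whose groups lie apart was not computed.

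Hsf2, a factor known from development and the germ line, had few reads, 21 in all in TBP LOF and 53 in CONTROL embryos. It was read in 5 of 9 LOF and 8 of 9 CONTROL embryos, and normalised counts were 0, 0.612 and 4.91 at the lowest, median and highest LOF embryo and 0, 5.77 and 9.65 in CONTROL embryos. The log2 fold change of -1.98 (SE 0.77, edgeR adjusted p = 0.0409) passed the threshold narrowly. It did not pass with TMM scaling (-0.78, adjusted p = 0.476) nor when LOF embryo 1, 2, 5, 6, 8 or 9 or CONTROL embryo 2, 6, 8, 9 or 10 was left out (adjusted p = 0.0501 to 0.0817).

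**Figure D3:**
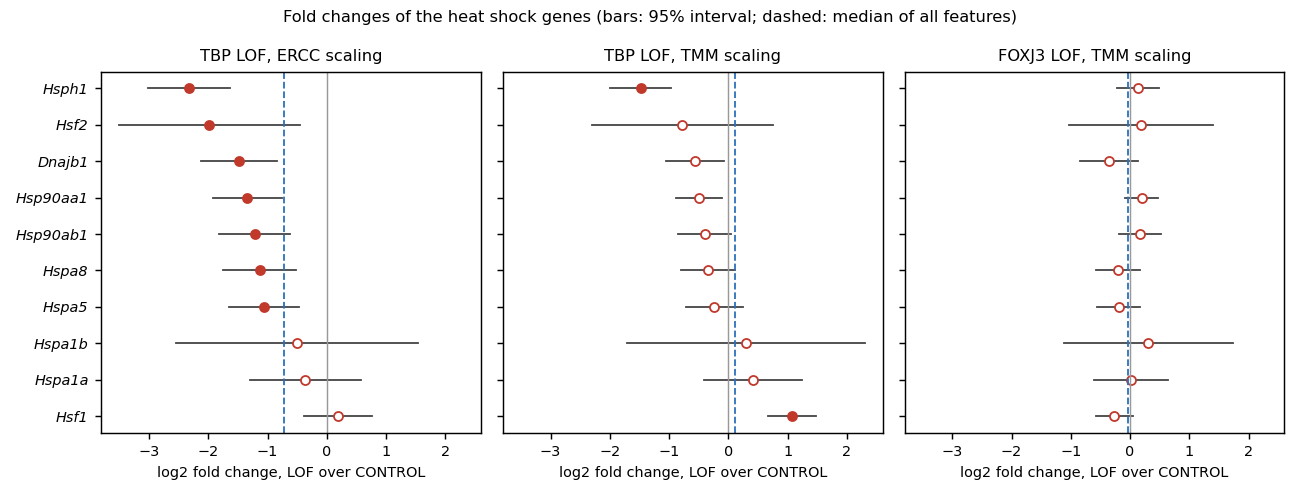
Log2 fold changes of LOF over CONTROL embryos with their 95% intervals for TBP with ERCC scaling, TBP with TMM scaling and FOXJ3. Filled points passed an adjusted p of 0.05, the dashed line is the median of all features, and 7 genes passed in the first panel, 2 in the second (Hsph1 and Hsf1) and 0 in the third, while Hspa1a and Hspa1b changed sign between the first panel and the second.

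FOXJ3 LOF was compared with its own CONTROL embryos, with library batch as a covariate. Of the 10 heat shock genes, 0 passed the test (edgeR, and 0 with DESeq2), and 0 reached 0.05 before adjustment. Over all 19517 features 2 passed, or 0.0102%, and 1115 reached 0.05 before adjustment. Taken over the 10 genes the median log2 fold change was 0.07, against -0.03 over all features. Among simulated well-read features, the design recovered 73 of 100 with a log2 change of 1. Hspa1a, Hspa1b and Hsf2 had mean read counts under that level, so this rate does not cover them.

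Hsp90aa1 had 798, 1141 and 2008 TMM-normalised counts at the lowest, median and highest FOXJ3 LOF embryo and 781, 1077 and 1519 in CONTROL embryos, and LOF differed by 0.20 on the log2 scale (95% interval -0.08 to 0.48). Hsp90ab1 differed by 0.17 (-0.19 to 0.52), Hsph1 by 0.13 (-0.23 to 0.49), Hspa8 by -0.20 (-0.58 to 0.17) and Hspa5 by -0.19 (-0.56 to 0.17). Together with those of Hsf1, Dnajb1 and Hspa1a, the intervals of 8 of the 10 genes left out a change of 1 on the log2 scale in either direction, and those of Hspa1b and Hsf2 did not.

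Dnajb1 showed 61.9, 152 and 311 normalised counts in FOXJ3 LOF and 69.1, 208 and 641 in CONTROL embryos, and in 12 of 16 LOF embryos the value was under the CONTROL median. Its log2 fold change of -0.36 (-0.84 to 0.13) did not pass the test (edgeR adjusted p = 0.916) and lay between -0.48 and -0.11 when each embryo was left out. Hsf1 had the smallest unadjusted p of the 10 genes. It was at 74.0, 133 and 222 in LOF and 103, 155 and 271 in CONTROL embryos, with 13 of 16 LOF values under the median of the CONTROL group, and differed by -0.27 (-0.58 to 0.04, adjusted p = 0.904).

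Hspa1a had 6.26, 18.6 and 69.7 normalised counts at the lowest, median and highest FOXJ3 LOF embryo and 6.23, 16.5 and 34.998 in CONTROL embryos, with a log2 fold change of 0.01 (-0.61 to 0.63). Within library batch 1 it was -0.37 and within batch 2 0.46. The LOF value of 69.7 was that of embryo 7 of batch 2, where the next LOF value was 25.8. Medians were 18.7 in LOF and 21.7 in CONTROL embryos of batch 1, and 18.5 and 15.2 in batch 2. Hspa1b (0.31, -1.11 to 1.73) and Hsf2 (0.18, -1.04 to 1.40) had wide intervals. Leaving out each embryo gave 0.050 to 0.88 for Hspa1b and 0.015 to 0.82 for Hsf2, both highest without CONTROL embryo 3 of batch 1, and Hsf2 was at -0.62 in batch 1 and 1.28 in batch 2. The difference of the effect between the batches passed the test for 0 of the 10 genes and 0 of 19517 features (edgeR), of which 1553 had an unadjusted p under 0.05.

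Whether the effects of TBP and FOXJ3 removal differed was tested directly over the 47 embryos, which share no CONTROL samples between the experiments. With ERCC scaling, 6 of the 10 genes had a lower effect of TBP removal than of FOXJ3 removal, against 27.8% of features. Over all features tested the median difference of log2 fold changes was -0.91. The difference of log2 fold changes was -2.65 for Hsph1 (edgeR adjusted p = 2.55e-06), -1.69 for Hsp90aa1, -1.54 for Hsp90ab1, -1.41 for Dnajb1, -1.17 for Hspa8 and -1.10 for Hspa5. It did not pass for Hsf2 (-2.50, adjusted p = 0.0572), Hspa1a (-0.61, 95% interval -1.76 to 0.55), Hspa1b (-0.98, -3.53 to 1.56) or Hsf1 (0.26, -0.47 to 0.98). With TMM scaling, where 20.9% of features passed in either direction, 3 genes did, Hsph1 (-1.60), Hsp90aa1 (-0.66, adjusted p = 0.0226) and, in the other direction, Hsf1 (1.35). Antibody, IgG species and library batch cannot be told apart from the target in this contrast.

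Other chaperone genes were read from 5 lists, whose counts stand against 29.7% of all features lower and 1.34% higher with ERCC scaling, and 12.7% lower and 12.8% higher with TMM scaling. Under the stricter filter on low counts, 4269 of 8124 features were lower and 123 higher with ERCC scaling, with a median log2 fold change of -0.90. Of 33 cytosolic co-chaperones and other heat shock proteins tested, 18 were lower in TBP LOF embryos and 0 higher, with a median log2 fold change of -1.04. With TMM scaling 11 were lower and 3 higher. Hspbp1, which exchanges the nucleotide of HSP70, fell by 2.82 (SE 0.35, edgeR adjusted p = 1.36e-08), from a normalised count of 113 ± 26.9 in CONTROL to 16.1 ± 11.2 in LOF embryos (SD, n = 9 each). Cdc37, which brings kinases to HSP90, fell by 2.701 (SE 0.34, edgeR adjusted p = 1.52e-08), from 120.2 ± 29.0 to 18.1 ± 10.1.

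In the endoplasmic reticulum, 12 of 27 chaperones and genes of the unfolded protein response were lower and 0 higher, with a median of -0.84, and 3 were lower and 1 higher with TMM scaling. Dnajb11, a co-chaperone of the protein encoded by Hspa5, fell by 2.39 and Pdia3, a disulfide isomerase, by 1.64 on the log2 scale. Mitochondrial chaperones and proteases included 5 lower and 0 higher genes of 13 (median -0.78), among them the protease Clpp, which fell by 3.03, and Grpel1, a nucleotide exchange factor, which fell by 1.70, and 3 lower and 2 higher with TMM scaling. Both medians lay close to the -0.72 of all features.

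Of the 14 subunits of the chaperonin TRiC and prefoldin, which fold actin and tubulin, 11 were lower and 0 higher (median -1.005), and 5 were lower and 0 higher with TMM scaling. Cct4 fell by 3.01 and Pfdn2 by 1.97 on the log2 scale. Heat shock factors and their regulators, apart from Hsf1 and Hsf2, held a median of -0.16, with 2 lower of 10, Vcp, an ATPase that unfolds proteins, which fell by 1.66, and the deacetylase Sirt1, which fell by 1.64. With TMM scaling 2 of that list were lower and 2 higher. The genes named from the 5 lists were chosen by their adjusted p in this comparison, so their values describe them and support nothing further. In FOXJ3 LOF embryos 0 genes of the 5 lists passed the test.

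**Figure D4:**
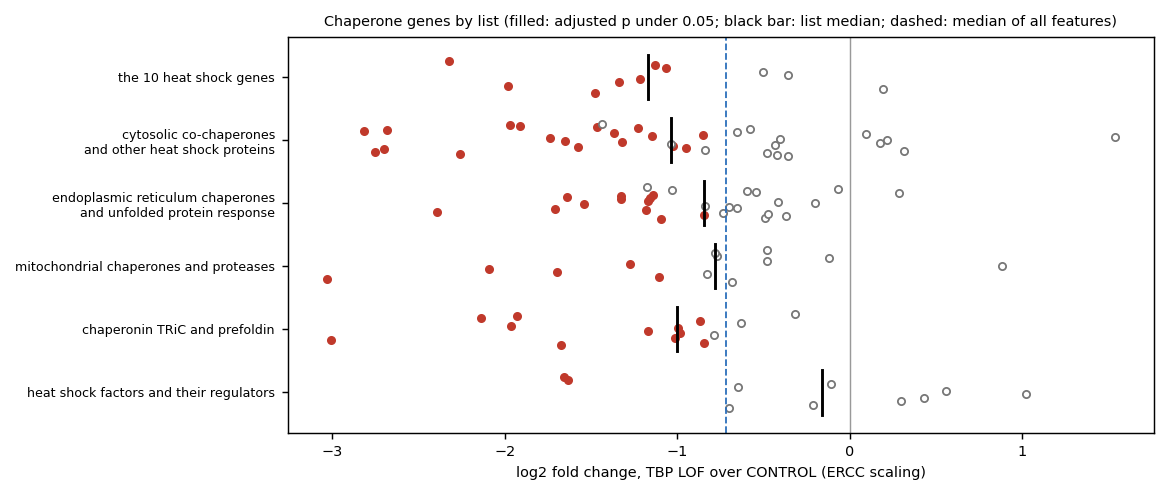
Log2 fold changes of TBP LOF over CONTROL embryos with ERCC scaling, 1 point per gene, for the 10 heat shock genes and 5 lists of chaperone genes. Filled points passed an adjusted p of 0.05, black bars are list medians, and the dashed line is the median of all features at -0.72, which lies to the left of the median of the heat shock factors and their regulators (-0.16) and to the right of the other list medians.

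Marker genes of 3 lists were also read in the TBP comparison, where 29.7% of all features were lower and 1.34% higher with ERCC scaling, and 12.7% lower and 12.8% higher with TMM scaling. Most of the markers did not pass the test with ERCC scaling. Summed over 9 genes of the 2-cell stage, markers took 286 to 516 CPM in TBP LOF and 107 to 343 in CONTROL embryos, and 2 of the 9 were higher and 0 lower with ERCC scaling, and 4 higher and 0 lower with TMM scaling. The 10 oocyte markers took 1979 to 3481 in LOF and 836 to 2435 in CONTROL embryos, with 1 lower and 0 higher with ERCC scaling and 1 lower and 6 higher with TMM scaling. Of 14 cumulus cell markers, 7 were at 0 in each TBP group and the sum was 12.01 to 38.8 CPM in LOF and 19.2 to 73.9 in CONTROL embryos, with 2 of 5 tested lower and 0 higher with ERCC scaling, and 0 lower and 0 higher with TMM scaling. In the FOXJ3 experiment 0 of the markers of these 3 lists passed. The part of these markers in the values of the heat shock genes was not tested.

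Across the 47 embryos, centred within group and batch so that the contrasts above play no part, some of the genes varied together. Spearman's rho of CPM was 0.70 between Hspa8 and Hsp90ab1, 0.64 between Hspa8 and Hsp90aa1, 0.61 between Hspa8 and Hsph1, 0.61 between Hsp90aa1 and Hsph1 and 0.53 between the 2 HSP90 genes. Hspa5 went less closely with these 4 genes (0.25 to 0.36), and with Dnajb1 (0.31). Dnajb1 had values between -0.19 and 0.07 with the 4, although it encodes a partner of HSP70. Hspa1a showed -0.43 with Hsp90ab1 and 0.02 with Hsp90aa1. Embryos share depth and total read number, which enter each value, and rho with the number of reads was between -0.24 (Dnajb1) and 0.31 (Hsf2).

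**Figure D5:**
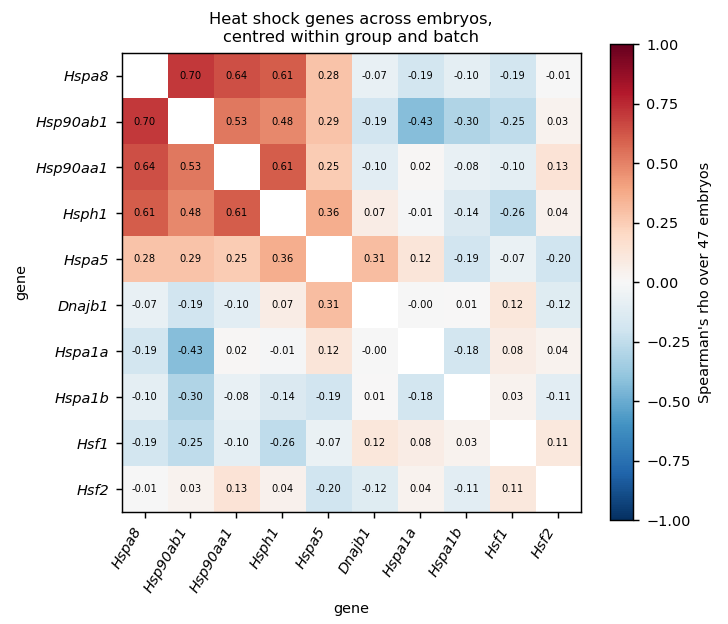
Spearman's rho between the heat shock genes over 47 embryos, on CPM centred within group and library batch, with genes on both axes. Hspa8, Hsp90ab1, Hsp90aa1 and Hsph1 form a block with values from 0.48 to 0.70, and Hspa1a, Hspa1b, Hsf1 and Hsf2 lie outside it.

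Among 7120 other genes, those whose pattern over these embryos was most like Hspa8 were Eif2s1 (rho 0.83), Pttg1ip (0.78) and Tipin (0.78), and most like Hsp90aa1 were H3f3a (0.78), Top1 (0.77) and Bop1 (0.75). These values, the highest among 7120 genes, all lay above the highest between heat shock genes (0.70). The spread of rho over all pairs of genes was not computed. For Hspa1a the values were lower, with Pfdn4 (0.63), Fbh1 (0.54) and Gm16796 (0.53). For Hspa1b, with few reads, they were Nbr1 (0.52), Tmem117 (0.52) and Gm20634 (0.48). The variation between CONTROL embryos themselves also differed by gene. In TBP CONTROL embryos the SD of CPM was 0.133 of the mean for Hspa8, 0.154 for Hsp90ab1, 0.158 for Hsf1 and 0.219 for Hsp90aa1, and 0.509 for Dnajb1 and 0.547 for Hspa1a. Without CONTROL embryo 10 the value for Dnajb1 was 0.197, and without CONTROL embryo 6 that for Hsp90ab1 was 0.0941. In FOXJ3 CONTROL embryos it was 0.526 for Hspa8 and 0.464 for Hsp90ab1, and 0.207 for Hsf1 and 0.234 for Hsp90aa1. These embryos join 2 library batches, and within batch 1 and batch 2 the values were 0.542 and 0.391 for Hspa8, 0.610 and 0.195 for Hsp90ab1, 0.192 and 0.194 for Hsf1 and 0.280 and 0.190 for Hsp90aa1.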

How the data were processed

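The authors trimmed the reads with Trimmomatic, kept those of transcript 5' ends, mapped them with STAR 2.7.11a to GRCm38 with the mCherry-Trim21 construct added, and counted genes and transposable elements with TEcount and TElocal. The deposited values are expected counts (estimated counts), all whole numbers and without normalization. The sources used here do not give whether strand was used. Embryos were kept with at least 500000 reads, 1000 genes, at most 10% mitochondrial and 15% ERCC reads, which removed TBP CONTROL embryo 7 and FOXJ3 LOF batch 1 embryo 7. Features with a read in at least 25% of embryos were tested.

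Counts were fitted with the quasi-likelihood test of edgeR 4.0.16 (R 4.3.3), two-sided, with Benjamini-Hochberg adjustment over genes and transposable element families and a threshold of 0.05. Scaling was by the median of ratios of 42 ERCC transcripts for TBP and by TMM for FOXJ3, where library batch was a covariate. SE came from the F statistic. DESeq2 1.42.0, TMM, other filters, TElocal counts, a covariate for mCherry-Trim21, a replicate block and leaving out each embryo were tried. For genes, 100% of the TElocal values were equal to those of TEcount, so that this alternative left the counts of the heat shock genes unchanged. On simulated TBP counts 92 of 100 features changed by 2 and 18 of 100 changed by 1 on the log2 scale were recovered (12 unchanged features called). On simulated FOXJ3 counts these were 100 and 73 of 100 (21 unchanged features called). In both, changed features were drawn only from well-read features, above a mean read count that Hspa1a, Hspa1b and Hsf2 did not reach.

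Lists of cytosolic co-chaperones, endoplasmic reticulum, mitochondrial and chaperonin genes, heat shock factors with their regulators, and 2-cell, cumulus cell and oocyte markers were used. Members and lists were chosen with earlier results of these data known. Named are all 10 members, up to 2 genes per chaperone list and direction with the smallest adjusted p, and the 3 genes most like each of Hspa1a, Hspa1b, Hspa8 and Hsp90aa1. The spelling TATATA, and the spread between CONTROL embryos with 1 embryo left out, were added after the data were seen. Embryos with the same number are not known to share an origin, and p-values measure the spread between embryos. The authors collected the embryos in at least 3 independent experiments, and the main fits held no term for these. Intervals and floors do not cover amplification, as reads carried no molecular identifiers.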

Additional observations from a re-analysis of the deposited data

Results flagged for a closer look

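In 3 of the 20 groups of 9 TBP embryos examined, 1 embryo stood apart from the others by Dixon's criterion. Chance alone flags about 1 in 20 groups where values are normally distributed. The criterion was applied to normalised counts without a log, which need not be so distributed, so the rate for these groups is not known. Dnajb1 stood at 479.6 normalised counts in TBP CONTROL embryo 10, against a group median of 148 and a next value of 193. Hsf1 stood at 259 in TBP LOF embryo 8, against a median of 139 and a next value of 169. On CPM that embryo held 113 for Hsf1, below LOF embryo 9 (119.9) and LOF embryo 1 (114), and it had the lowest ERCC share of the LOF group (2.67%). Hsf2 stood at 4.91 in TBP LOF embryo 7, against a median of 0.612 and a next value of 2.17, on 8 reads.

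The effect of TBP removal differed from that of FOXJ3 removal, by the edgeR test of the difference of log2 fold changes with ERCC scaling, for Hspa8 (-1.17, adjusted p = 0.0211), Hspa5 (-1.10, adjusted p = 0.0192), Hsp90aa1 (-1.69, adjusted p = 3.04e-04), Hsp90ab1 (-1.54, adjusted p = 0.00161), Hsph1 (-2.65, adjusted p = 2.55e-06) and Dnajb1 (-1.41, adjusted p = 0.00873). With TMM scaling the difference was -0.14 for Hspa8, -0.03 for Hspa5, -0.55 for Hsp90ab1 and -0.18 for Dnajb1 and did not pass the test for these 4 genes. The median difference over all features was -0.91 with ERCC scaling and 0.11 with TMM scaling.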

How the results depend on the processing

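The number of heat shock genes past the threshold in the TBP comparison was 7. It was 2 with TMM scaling and 2 with DESeq2 size factors in edgeR, and 6 to 7 under the other alternatives, where Hsf2 was the gene gained or lost. Without 1 embryo it was 6 to 7. In the difference between TBP and FOXJ3 effects it was 6, 3 with TMM scaling and 7 with DESeq2. In the FOXJ3 comparison it was 0 under every alternative run. Hspa1a turned from -0.36 to 0.41 (TMM) and 0.44 (DESeq2 size factors), and Hspa1b from -0.50 to 0.30 and 0.34. The sum of both turned from -0.38 to 0.19 on CPM. Their difference between experiments turned to 0.37 and 0.022 with TMM scaling. Among FOXJ3 effects near 0, Hspa1a turned to -0.022 (DESeq2 test), -0.00276 (no filter), -0.0103 (filterByExpr) and -0.37 (batch 1), and lay between -0.25 and 0.13 without 1 embryo. Hspa8 turned to 0.027 and Hspa5 to 0.055 with ERCC scaling, Hsp90aa1 to -0.033 in batch 2 and Hsf2 to -0.62 in batch 1. Whether embryo numbers pair the samples is not known. Same-numbered TBP embryos correlated at -0.06 to 0.14 in 7 pairs and FOXJ3 embryos at -0.22 to 0.27 in 12. Differently numbered embryos were not set beside them, so these values cannot decide it. With the replicate block 7 heat shock genes passed for TBP, as in the same embryos without it, and 0 for FOXJ3, and Hspa1b turned to 0.12 with the replicate block and 0.0065 without it. Over the TBP alternatives other than leaving out each embryo, the Hsf2 log2 fold change lay between -3.38 and -0.75. Hspa1b and Hsf2 had 52 and 175 reads in all. The cause of these differences was not tested.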
